A study of Homo sapiens with 2 samples.

Results

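The CDK inhibitor family comprised 8 genes, CDKN1A, CDKN1B, CDKN1C, CDKN2A, CDKN2B, CDKN2C, CDKN2D and CDKN3, taken by name. They were measured by 11 probes on 20 of the 58717 non-control spots, against 21743 genes that could be named in all. MRC-5 cells, fibroblasts from human fetal lung, received control siRNA in 1 culture and periostin siRNA in the other. The RNA of each culture was hybridized to 1 single-colour expression array. The periostin siRNA was used at 10 nM for 48 h, while the dose and time of the control siRNA on the arrays were not given in the sources used here. Both arrays lay on 1 slide. With 1 culture and 1 array per condition no difference has a replicate check, and no p-value is given.

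Progression through the cell cycle is driven by cyclin-dependent kinases (CDKs) paired with cyclins, and CDK inhibitors are the proteins that hold these kinases in check. The INK4 proteins (CDKN2A to CDKN2D) bind CDK4 and CDK6 and keep them from pairing with D-type cyclins. The CIP/KIP proteins (CDKN1A to CDKN1C) bind whole cyclin and CDK complexes, above all those with CDK2, and CDKN3 is a phosphatase that removes the activating phosphate from CDKs. In fibroblasts, CDKN1A and CDKN2A are best known for the arrest that follows DNA damage and senescence, and CDKN1B for the resting state.

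POSTN, the gene targeted by the siRNA, had a signal of 2638 with control siRNA and 279.8 with periostin siRNA, which was 9.43-fold lower. A signal is the background-subtracted brightness of a spot after both arrays were brought to a common 75th percentile, and the log2 ratio is the log2 signal with periostin siRNA minus that with control siRNA. The errors after ± are, for a probe printed 10 times, the SD of its spots. For a probe printed once the error is the one the scanner software assigns to the spot, combined over both arrays. For bright probes this assigned error was nearly constant, 0.20 for CDKN2A and for VIM alike, so it does not measure the precision of a given probe. Neither kind of error covers the difference between cultures. Spots well above background made up 58.0% with control siRNA and 58.9% with periostin siRNA, and saturated spots were absent. All 10 fibroblast markers were well above background on both arrays, with control signals between 1927 for PDGFRB and 189263 for VIM. Of 8 immune markers, 4, namely LAPTM5, HLA-DRA, MS4A1 and S100A8, were below background on both arrays, the brightest, CORO1A, reached 89.9, and the summed signal was 126.9 and 124.8. Of 8 epithelial markers 5 were well above background on both arrays, while CDH1 and KRT5 were below it on both. The brightest, KRT19, gave 166.8 and 341.9, and the list's summed signal was 394.9 and 715.6. The 6 measured all lay above 0, with a median log2 ratio of 0.85, or 0.23 under the normexp background correction. The highest ratio of the list was 1.97 ± 0.22 for EPCAM. PECAM1 was below background on both arrays, and of the 6 endothelial markers TEK alone exceeded a signal of 80, with 5457 and 5175. Less RNA of a gene per cell and fewer cells expressing it cannot be told apart in such bulk RNA.

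All 11 probes were well above background on both arrays. This mark of the scanner software was also passed on both arrays by 5 of the 8 epithelial markers, among them SCGB1A1 at 104.4 and 110.2. The CDKN2B probe was dimmer, at 52.6 and 49.7, so the mark alone does not show that CDKN2B is expressed. CDKN3 and CDKN2C were lower with periostin siRNA by more than 3-fold and CDKN2D by less than 2-fold, CDKN1C was higher by 2.08-fold, and the brightest probes of CDKN1A, CDKN1B, CDKN2A and CDKN2B had log2 ratios between -0.12 and 0.09. The 2 members lower by more than 3-fold stood against 2.75% of the 16052 named genes with a ratio, and the 0 members higher by more than 3-fold against 3.37%. In all, 441 genes were lower and 541 higher by more than 3-fold, a split that turned to 190 and 143 under the normexp background correction and to 525 and 453 under scaling on the median. At 2-fold, 2 members were lower and 1 was higher, against 6.42% and 7.97% of all genes. Over the 8 members the median log2 ratio was -0.10, and 6 lay below 0, whereas the median over all genes was 0.06 with 45.5% below 0.

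**Figure D1:**
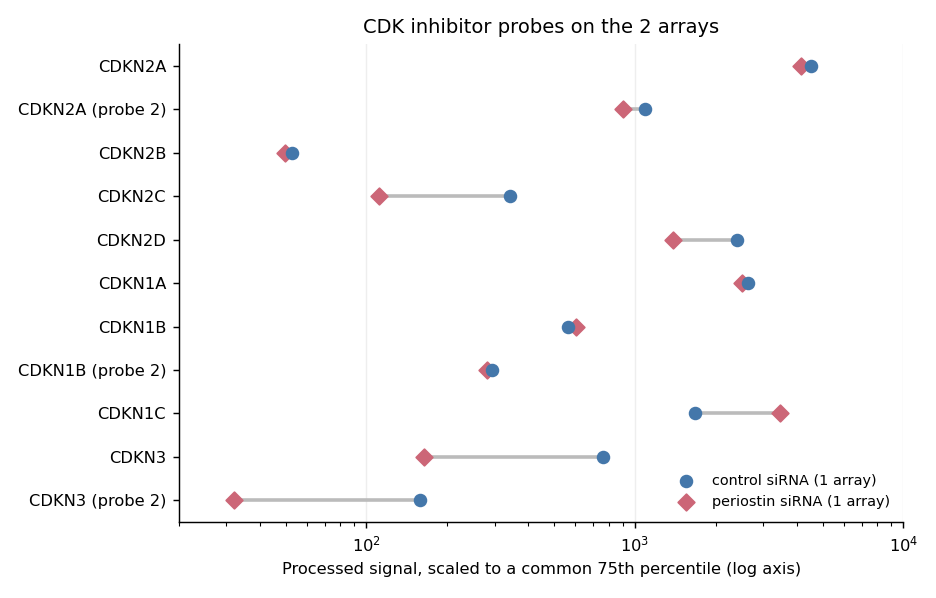
Scaled signal of each CDK inhibitor probe (horizontal axis, logarithmic) on the control siRNA array (circles) and the periostin siRNA array (diamonds), with 1 array per condition and a grey line joining the values of a probe. Probe 2 is the dimmer of the probes of a gene, and the long lines belong to CDKN3, CDKN2C, CDKN2D and CDKN1C. Signals of different probes do not rank the genes.

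As to abundance, brightness ranks a probe among the 50599 probes of an array but does not order the inhibitors among themselves, because probes differ in how well they hybridize. On the control array the brighter CDKN2A probe exceeded 94.8% of all probes, and the single probes of CDKN1A and CDKN2D exceeded 92.4% and 92.0%. The CDKN1C probe exceeded 89.9% on the control array and 93.7% on the periostin siRNA array. The brighter probes of CDKN3 and CDKN1B exceeded 84.4% and 81.9%, and the CDKN2C probe exceeded 77.6%. The CDKN2B probe, at 62.0%, gave a dim signal. The dimmer CDKN3 probe exceeded 71.3% of the probes where the brighter exceeded 84.4%, which shows how far brightness can differ between probes of a single gene.

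Among the INK4 genes, CDKN2C and CDKN2D were lower with periostin siRNA and CDKN2A and CDKN2B were near 0. CDKN2C encodes p18, and its probe gave 341.2 with control siRNA and 111.4 with periostin siRNA. The log2 ratio was -1.62 ± 0.21, a 3.06-fold difference, and 2.65% of the 16052 genes with a ratio had a lower one. This value lay just past 3-fold, and it fell short of it without scaling (-1.57) and under the same normexp correction (-1.18), in which the background is modelled and a constant added to both arrays. CDKN2D encodes p19, and its probe gave 2393 with control siRNA and 1390 with periostin siRNA. The log2 ratio was -0.78 ± 0.20, or 1.72-fold lower, and 9.05% of the genes with a ratio were lower still.

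CDKN2A is the locus of p16 and, from another start and reading frame, of the ARF protein. The brighter of its probes, A_23_P43490, gave 4517 with control siRNA and 4143 with periostin siRNA, and its log2 ratio was -0.12 ± 0.20. The other probe, A_33_P3411628, gave 1089 and 902.2, a log2 ratio of -0.27 ± 0.20. The probes differed by 0.15, with an assigned error of 0.29 that does not measure their precision. Neither is known here to separate the p16 transcript from the ARF transcript, since the files hold no probe sequences. CDKN2B, which encodes p15 and is known as a gene that TGF-β induces, gave 52.6 with control siRNA and 49.7 with periostin siRNA. Its log2 ratio of -0.08 ± 0.22 was smaller than its assigned error, and its sign turned under the normexp correction (0.04).

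Of the CIP/KIP genes, CDKN1C alone differed by 2-fold. CDKN1C encodes p57, an imprinted inhibitor expressed mainly from the maternal allele, and its probe gave 1669 with control siRNA and 3467 with periostin siRNA. The log2 ratio was 1.05 ± 0.20, and 7.27% of the genes with a ratio had a higher one. It was the highest ratio of the 8 members, and under scaling on the median it was 0.93, short of 2-fold. CDKN1A, which encodes p21, an inhibitor induced by DNA damage, gave 2625 with control siRNA and 2509 with periostin siRNA. Its log2 ratio of -0.07 ± 0.20 was within the assigned spot error.

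CDKN1B, which encodes p27, was the only member printed 10 times. On the control array its 10 spots ranged from 532.9 through a median of 564.4 to 590.5, and on the periostin siRNA array from 562.8 through 602.7 to 653.9. The spots overlapped between the arrays, although 9 of the 10 were brighter with periostin siRNA. The log2 ratio was 0.09 ± 0.06 (SD over 10 spots), and a difference of this size was within what the scaling could turn, since scaling on the median gave -0.04. Its other probe, printed once, gave 292.9 and 280.2, a log2 ratio of -0.06 ± 0.20.

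CDKN3 had the lowest ratio of the family, and its probes gave like values. The brighter probe, A_23_P48669, gave 758.7 with control siRNA and 164.5 with periostin siRNA, and its log2 ratio was -2.21 ± 0.20, or 4.61-fold lower. The dimmer probe, A_33_P3307903, gave 158.9 and 32.1, a log2 ratio of -2.31 ± 0.22, or 4.96-fold lower. The probes differed by 0.10, with an assigned error of 0.30 that does not measure their precision, and 1.33% of the genes with a ratio lay below the brighter. Under the normexp correction the ratio of the brighter probe was -1.70, which was still past 3-fold.

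**Figure D2:**
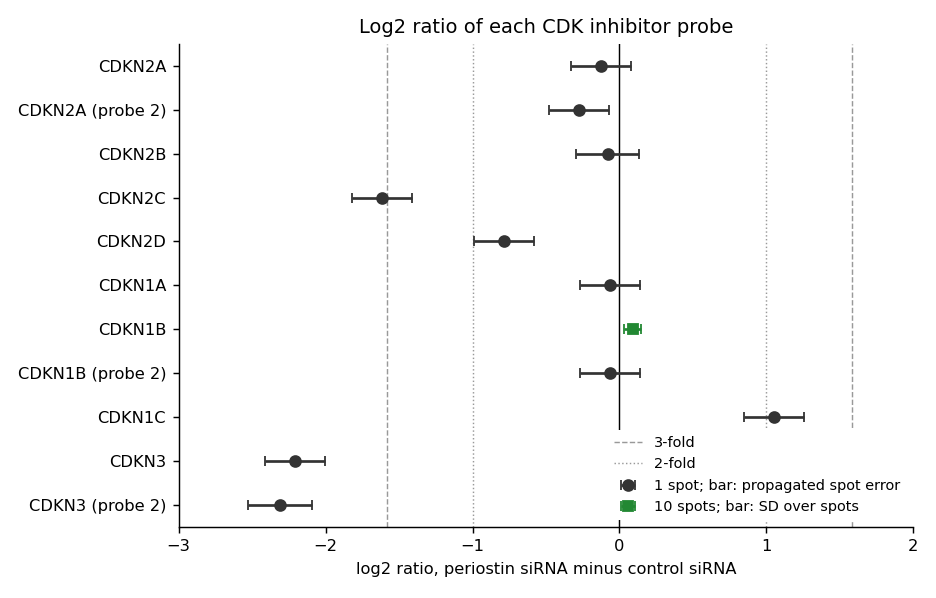
Log2 ratio (periostin siRNA over control siRNA) for each of the 11 CDK inhibitor probes. Circles are probes printed once, with the propagated spot error as bar, and the square is the CDKN1B probe printed 10 times, with the SD over spots; dotted and dashed lines mark 2-fold and 3-fold. Both CDKN3 probes lie beyond the 3-fold line, the bar of CDKN2C spans it, and the bar of CDKN1C spans the 2-fold line.

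The start regions of the 3 members with the lowest ratios are shown so that they can be compared. They are the 250 bases before each RefSeq gene start on GRCh38.p14, a later build than the hg19 annotation of the array, and they were matched by gene symbol. Of the 8 members, 7 had 1 or more such windows, 10 in all, and CDKN1C had none. Capitals mark, on either strand, the CCAAT box CCAAT, which the factor NF-Y binds, the GC box GGGCGG, which SP1 binds, and the cell cycle genes homology region (CHR, searched as TTTGAA or TTCGAA), which complexes of the MuvB core bind in genes of the G2 and M phases. Copies of the GC box may overlap one another. CDKN2C has 3 annotated starts, and the arrays do not tell which of them the cells used.

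CDKN3 promoter, chr14:54396757-54397006, plus strand: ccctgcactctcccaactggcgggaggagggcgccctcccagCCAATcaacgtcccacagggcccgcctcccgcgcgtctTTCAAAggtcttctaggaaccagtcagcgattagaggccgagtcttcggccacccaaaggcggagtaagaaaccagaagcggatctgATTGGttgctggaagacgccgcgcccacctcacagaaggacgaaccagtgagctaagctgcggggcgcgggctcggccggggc
CDKN2D promoter, chr19:10568980-10569229, minus strand: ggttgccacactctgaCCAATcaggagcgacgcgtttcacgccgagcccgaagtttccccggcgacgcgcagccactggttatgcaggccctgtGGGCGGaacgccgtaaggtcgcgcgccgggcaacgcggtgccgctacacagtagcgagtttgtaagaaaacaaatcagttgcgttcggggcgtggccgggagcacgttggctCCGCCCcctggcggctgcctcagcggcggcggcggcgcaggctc
CDKN2C first promoter, chr1:50960495-50960744, plus strand: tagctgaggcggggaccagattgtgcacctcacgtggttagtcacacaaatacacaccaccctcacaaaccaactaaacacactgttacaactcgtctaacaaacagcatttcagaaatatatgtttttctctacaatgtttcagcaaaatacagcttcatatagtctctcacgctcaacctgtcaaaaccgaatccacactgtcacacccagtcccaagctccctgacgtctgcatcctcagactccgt
CDKN2C second promoter, chr1:50968456-50968705, plus strand: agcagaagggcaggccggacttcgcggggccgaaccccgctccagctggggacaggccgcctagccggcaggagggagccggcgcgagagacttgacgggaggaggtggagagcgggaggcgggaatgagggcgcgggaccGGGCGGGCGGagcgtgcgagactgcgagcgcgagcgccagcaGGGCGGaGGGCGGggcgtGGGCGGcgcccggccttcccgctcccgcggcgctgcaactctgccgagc
CDKN2C last promoter, chr1:50969995-50970244, plus strand: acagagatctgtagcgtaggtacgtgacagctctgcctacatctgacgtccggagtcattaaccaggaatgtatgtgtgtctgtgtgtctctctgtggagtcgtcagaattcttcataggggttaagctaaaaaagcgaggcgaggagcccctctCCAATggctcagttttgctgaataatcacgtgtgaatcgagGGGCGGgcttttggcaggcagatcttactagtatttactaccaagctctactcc

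The CDKN3 window held 2 CCAAT boxes and 1 CHR, and no GC box. It was the only member window with these CHR letters, which stood in 14.3% of the 35116 RefSeq windows of the same length. The CDKN2D window held 1 CCAAT box and 2 GC boxes. The CDKN2C windows held 0, 5 and 1 GC boxes in the order printed, and the last held 1 CCAAT box besides. Among the 7 members with a window, which leave out CDKN1C, a CCAAT box was present in 4 of the 10 windows, against 32.01% of all windows. The CDKN1B window, of a gene with a ratio near 0, was among those 4. A GC box was present in 7 of the 10, against 42.6%. These are matches of letters only.

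**Figure D3:**
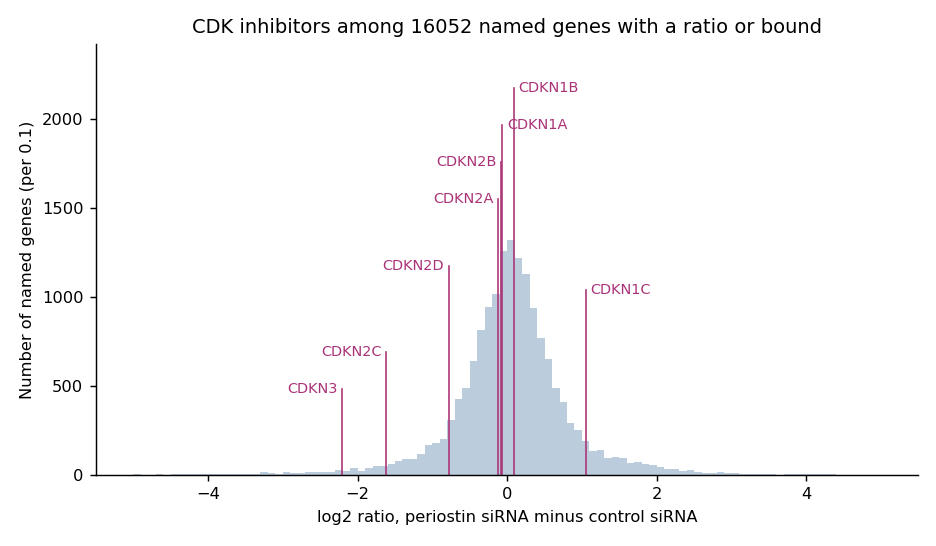
Distribution of the log2 ratio (periostin siRNA over control siRNA) over the 16052 named genes with a ratio or bound (bars, number of genes per 0.1; values beyond 5 in size are drawn in the end bars), with the 8 CDK inhibitors as vertical lines whose height has no meaning. CDKN1A, CDKN1B, CDKN2A and CDKN2B stand in the centre, CDKN2C and CDKN3 in the lower tail and CDKN1C on the upper shoulder.

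The genes beside each member in the genome were read to see whether a difference was shared with them. The nearest 2 protein-coding genes on each side gave 28 distinct neighbours, of which 21 had a ratio or bound, 6 were below background on both arrays and 1 was not named on the array. Past 2-fold, 2 of these 21 neighbours were lower and 2 were higher, against 6.42% and 7.97% of the 16052 named genes. Counts this small do not set the neighbours apart from all genes. Next to CDKN2A and CDKN2B on chromosome 9, MTAP, an enzyme of methionine salvage, gave 610.0 with control siRNA and 202.2 with periostin siRNA, and its log2 ratio was -1.59 ± 0.20, while CDKN2A and CDKN2B were near 0. IFNE, the interferon gene on its far side, was well above background with periostin siRNA only, at 17.8, and was higher by a log2 ratio of at least 1.24. On chromosome 11, PHLDA2, which like CDKN1C is imprinted, gave 18759 and 8264, a log2 ratio of -1.18 ± 0.20 and thus opposite in sign to CDKN1C. SLC67A1, which lies between them, gave 0.71 ± 0.20. On chromosome 14, BMP4, a growth factor of the TGF-β superfamily and a neighbour of CDKN3, gave 1103 and 3881, a log2 ratio of 1.82 ± 0.20, also opposite in sign. The other measured neighbours of CDKN3, CNIH1 and GMFB, gave -0.37 and -0.35. The measured neighbours of CDKN2C, FAF1 and RNF11, had ratios of -0.03 and -0.07 beside its -1.62.

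Transcripts of the proteins that the inhibitors act on lay mostly below 0. Of 12 cyclins and CDKs, 6 were lower and 0 higher by more than 3-fold, 11 lay below 0, and their median log2 ratio was -1.52. That median was -0.56 under the normexp correction and -1.05 over the genes well above background on both arrays. Of the kinases held by INK4 proteins, CDK4 gave -0.39 ± 0.20 and CDK6 -0.64 ± 0.20. Their partners CCND1 and CCND3 gave -0.07 ± 0.05 and 0.03 ± 0.20, whereas CCND2 gave -2.09 ± 0.21. Of the kinases that CIP/KIP proteins and CDKN3 act on, CDK2 gave -1.05 ± 0.22 and CDK1 -4.30 ± 0.16. The CDK2 signals were dim, at 92.2 and 44.7, and CDK1 was at 18.6 with periostin siRNA. CCNE1, a partner of CDK2, gave -0.37 ± 0.20, and CCNE2 was at least 3.97-fold lower, since it was well above background with control siRNA only. CCNA2, also a partner of CDK2, gave -2.96 ± 0.19, with a dim signal of 27.8 with periostin siRNA. The mitotic cyclins CCNB1 and CCNB2 gave -2.98 ± 0.08 and -3.11 ± 0.20.

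Downstream of the INK4 proteins lie the pocket proteins, which restrain the E2F transcription factors until CDKs phosphorylate them. Of 11 such genes 10 could be measured, 9 lay below 0, 2 were lower by more than 3-fold, and the median was -0.77. RB1 gave -0.93 ± 0.04, E2F1 -0.95 ± 0.17 and E2F5 -2.02 ± 0.24, while E2F2, with a control signal of 41.9, was lower by at least 5.39-fold. The E2F5 signals were dim too, at 88.6 and 21.9. RBL2, at 0.34 ± 0.20, was the only measured gene of that list above 0.

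**Figure D4:**
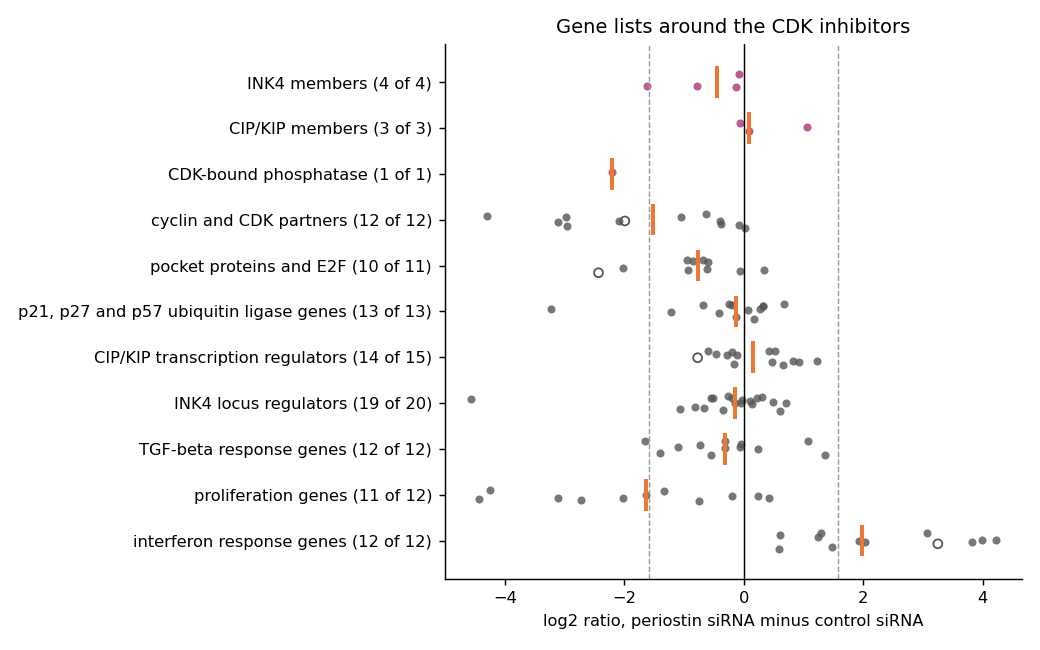
Log2 ratio (periostin siRNA over control siRNA) for the genes of each list, with the number measured of the number listed. Points are genes (the CDK inhibitors in purple), open circles are bounds where a gene was well above background on 1 array only, orange bars are list medians and dashed lines mark 3-fold; the jitter is for legibility. The cyclin and CDK partners and the proliferation genes lie mostly to the left and the interferon response genes to the right.

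The protein levels of p21, p27 and p57 are set largely by ubiquitin ligases, in which SKP2 with CKS1B recognises p27 and DTL recognises p21. Of 13 genes of these ligases, 1 was lower by more than 3-fold and the median was -0.14, or 0.011 under the normexp correction. DTL gave 137.9 with control siRNA and 14.8 with periostin siRNA, and its log2 ratio was -3.22 ± 0.28. CKS1B gave -1.21 ± 0.20, RCHY1 -0.69 ± 0.21 and RNF123 0.68 ± 0.20, whereas SKP2 itself gave -0.24 ± 0.21 at dim signals of 78.8 and 66.5. The arrays measure no protein, so inhibitor proteins were not measured here.

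Among 15 regulators of CIP/KIP transcription, 14 could be measured, none passed 3-fold, 7 lay on each side of 0 and the median was 0.16, or 0.42 over those well above background on both arrays. FOXO3, which can induce CDKN1B, gave 4166 and 9745, a log2 ratio of 1.23 ± 0.20, while CDKN1B gave 0.09. SMAD3 gave 0.83 ± 0.20, and FOXO1, dim at 17.2 with control siRNA, was lower by at least 1.71-fold.

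Among 20 regulators of the INK4 locus, which include the Polycomb proteins that silence it, 19 could be measured and the median was -0.15. ID1, an inhibitor of the ETS factors that activate CDKN2A, gave 22368 with control siRNA and 944.3 with periostin siRNA, and its log2 ratio was -4.57 ± 0.20. TBX2 gave -1.07 ± 0.20, the Polycomb methyltransferase EZH2 -0.81 ± 0.20 and ETS1 0.70 ± 0.25, while the Polycomb members BMI1 and CBX7 gave -0.27 ± 0.20 and 0.60 ± 0.20. The ETS1 signals were dim, at 24.7 and 40.1. CDKN2B-AS1, the antisense RNA of the locus, named after its value was seen, gave 27.4 and 19.2, a log2 ratio of -0.51 ± 0.27. Beside these, CDKN2A and CDKN2B were near 0. Of 12 TGF-β response genes, listed because CDKN2B is known as a target of that pathway, 9 lay below 0 with a median of -0.31. CCN2 gave -1.40 ± 0.20 and TGIF1 -1.10 ± 0.20, and TAGLN gave 1.37 ± 0.20.

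Genes of other programmes differed between the arrays too. Of 12 proliferation genes 11 could be measured, 9 lay below 0 and 6 were lower by more than 3-fold, with a median of -1.64. BUB1 gave -4.42 ± 0.35, TOP2A -4.24 ± 0.25, CENPF -3.11 ± 0.20, RRM2 -2.72 ± 0.22 and MKI67 -2.03 ± 0.22, whereas PCNA gave 0.42 ± 0.20. With periostin siRNA the signals of BUB1, TOP2A, RRM2 and MKI67 were dim, at 10.2, 19.9, 26.2 and 35.1. Of 12 interferon response genes 12 lay above 0 and 7 exceeded 3-fold; their median was 1.97. IFI44L gave 4.23 ± 0.25 and OAS2 3.82 ± 0.23, from dim control signals of 17.0 and 27.5. CXCL10 gave signals of 56.3 and 899.3, and OAS1 was at least 9.51-fold higher. The part of either programme in the ratios of the CDK inhibitors was not tested.

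**Figure D5:**
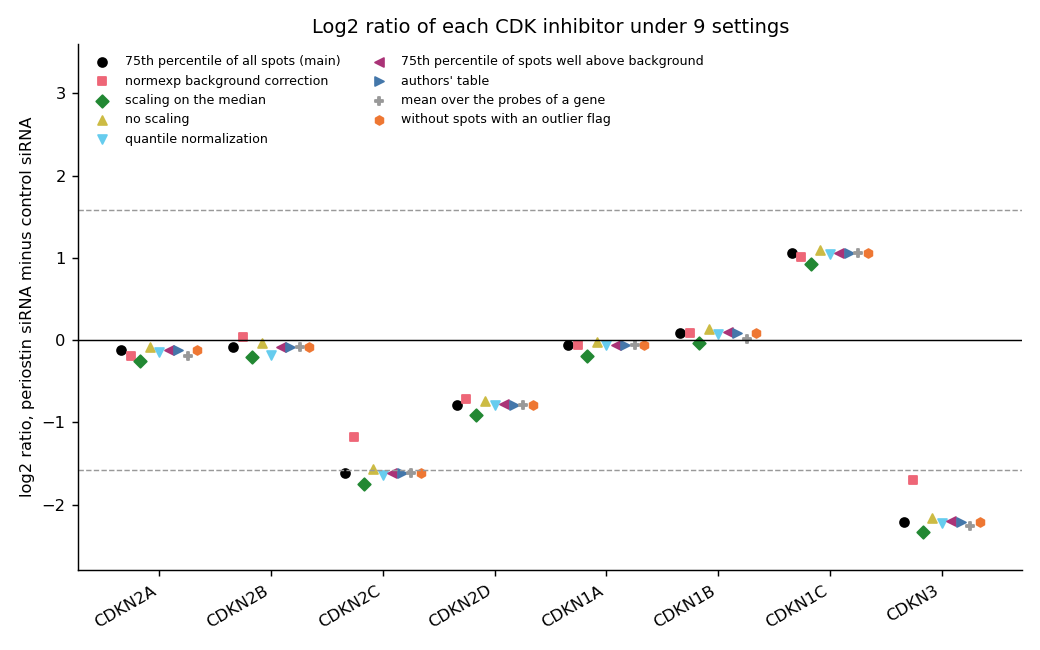
Log2 ratio (periostin siRNA over control siRNA) for the 8 CDK inhibitors under 9 settings of scaling, background correction, source and probe choice, with dashed lines at 3-fold. CDKN3, CDKN2C and CDKN2D stayed below 0 and CDKN1C above 0 under each of the 9 settings, and the sign turned for CDKN1B and CDKN2B.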

How the data were processed

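RNA of MRC-5 cells was labelled with Cy3 and hybridized to 1 Agilent array per condition. The authors deposited a scanner file per array, whose intensity values Feature Extraction (11.5.1.1 per the file headers, 12.0.3.1 per the labels) had background-subtracted and detrended, without scaling between arrays. The authors' normalized table held these intensities multiplied by 3.65 for control siRNA and 3.54 for periostin siRNA for every probe printed once. The normalization is not named in the sources used here.

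Control spots were left out, and log2 of the processed signal was brought to a common 75th percentile (371.6 and 383.0 before scaling) in Python 3.11.15 with numpy 2.4.6 and pandas 2.3.3. Spots of a probe were averaged, and the brightest probe stood for a gene. A probe well above background on 1 array was given as a bound, with its value on the dim array raised, where needed, to that of the dimmest spot well above background there (7.43 and 7.89 before scaling). Where that changed the sign, or both arrays were below background, no ratio was given. Genes were named through RefSeq accessions (GRCh38.p14), which matched 65.1% of spots. EED and PLK1 of the lists were not named. Some listed genes are not reported here. The normexp alternative used limma 3.58.1 in R 4.3.3 on the median spot signals with an offset of 50. The steps were tested on simulated data made from the control array, with changes planted in bright probes only. That test did not cover changes in dim probes, bounds, background correction or differences between cultures. The precision is limited by having 1 array per condition, and no test was run. The members and lists were chosen with earlier results of these data known. Text names the members with every probe, POSTN, the cyclins and CDKs, up to 4 genes of each other list by size of ratio, certain regulators and neighbours past 2-fold; further markers, neighbours and list genes were named after their values were seen. Other alternatives were other scalings, the authors' table, the mean over probes, filters on dim and flagged spots, and a 2-fold threshold.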

Additional observations from a re-analysis of the deposited data

How the results depend on the processing

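No paired analysis was possible because only 1 array exists per condition, which also means that leaving out a replicate, or taking the slide as a block, was not possible. With scaling on the median the centre of all genes moved by -0.13 and the ratio of CDKN1B was -0.0384, and the mean over its probes was 0.0131. Under the normexp correction the log2 ratio was -1.18 for CDKN2C, -1.70 for CDKN3 and -2.99 for POSTN, and the list medians were -0.56 for the cyclins and CDKs, -1.14 for the proliferation genes, 1.66 for the interferon response genes and 0.23 for the epithelial markers (0.85 as reported). A constant added to both signals brings ratios nearer to 0, and more so for dim probes. That correction left 1 member lower by more than 3-fold, as did omitting the scaling, and 190 genes lower and 143 higher. At 2-fold 2 members were lower and 1 was higher, with 1031 genes lower and 1279 higher. With no filter on low signal 686 genes were lower and 878 higher. With genes required to be well above background on each array, the median was -1.05 for the cyclins and CDKs and 0.42 for the CIP/KIP transcription regulators (0.16 as reported). The other 195 values moved by less than the spot error, or, for counts, by no more than 1.5 times. Among them under the normexp correction the sign turned for CDKN2B (0.04) and for the median of the ubiquitin ligase genes (0.011). That number does not measure robustness, since several settings could hardly move a value. The authors' table shifted the centre of all genes by -0.0004. The mean over probes leaves a member with 1 probe as it was, and another scaling factor moves all genes alike. CCNE2, E2F2, FOXO1, IFNE and OAS1 have bounds only, since each was well above background on 1 array.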
